A study of Mus musculus with 12 samples.

Results

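How far treated Smn-null motoneuron cultures remained from untreated control cultures was measured in 6 of the 12 RNA sequencing libraries of the study. The 3 libraries of Smn-/-;SMN2 cultures given 0.5 µM R-Roscovitine (treated SMA, for spinal muscular atrophy) were compared with the 3 libraries of Smn+/+;SMN2 cultures given none (untreated control). The libraries were chosen by the genotype and treatment in their labels, and no measured value entered the choice. The cultures were of primary motoneurons from FVB mice, and every animal, controls included, carried the human SMN2 transgene. The other 6 libraries, untreated SMA and treated control, give side by side values here. They also enter the library scaling, the gene filter and the estimate of spread behind the limma tests. Genotype and treatment change together between the compared groups, so their parts in a difference cannot be told apart in this comparison alone. Nothing in the labels states whether libraries of the same group are from separate cultures or litters, so a p-value here measures the spread between these libraries, which may be partly technical.

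Smn1 encodes the survival motor neuron protein (SMN), which loads Sm proteins onto spliceosomal small nuclear RNAs and is found in axons and growth cones. Mice have 1 Smn gene, and its loss is lethal unless human SMN2, which mostly yields a shortened and unstable protein, supplies some SMN. Spinal motoneurons low in SMN form smaller growth cones with fewer clustered presynaptic calcium channels. R-Roscovitine, a purine inhibitor of cyclin-dependent kinases, also slows the closing of presynaptic Cav2 calcium channels and so raises calcium entry. Spinal motoneuron cultures are prepared by enrichment from embryonic cord and can retain progenitors, glia and interneurons.

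Expression is given as FPKM, fragments normalised for transcript length and sequencing depth, a scale on which genes can be compared per length. By the step size of low values, the 6 libraries held an estimated 19.5 to 28.7 M reads. Treated SMA libraries were at 23.5, 20.9 and 19.5 M reads and untreated controls at 27.6, 28.7 and 27.1 M reads. By this estimate every treated SMA library was shallower than every untreated control. The step was searched within a set range and most low values were not whole multiples of it, so these depths are approximate. Cufflinks' interval, which covers counting and assignment error only, had a half-width whose median over genes was 10.2% to 11.1% of the level in treated SMA and 9.04% to 9.28% in untreated controls. Transcripts of mitochondrial DNA made up 20.0% to 23.7% of all FPKM in treated SMA and 17.7% to 19.4% in untreated controls, and Gm26924 made up 3.57% to 5.05% and 2.83% to 3.81%. These shares moved with the groups, and their part in the results was not tested.

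Some defining genes of motoneurons were at or near 0 in these cultures. Mnx1, the homeobox gene of postmitotic motoneurons, was listed at 0 in all 12 libraries, and Chat, the acetylcholine-synthesising enzyme, at 0 in the untreated controls and at 0.0605, 0.017 and 0.0182 FPKM in treated SMA libraries 1, 2 and 3. Isl1, another motoneuron homeobox gene, had 0.0895, 0.417 and 0.143 FPKM in treated SMA and 0.61, 0.0593 and 0.125 FPKM in untreated control libraries. Of 23 motoneuron markers in the tables, 9 stayed below 1 FPKM in all 12 libraries and 14 were tested. The 23 summed to 304, 348 and 389 FPKM in treated SMA and 366, 358 and 358 FPKM in untreated controls. Acta2, smooth muscle actin, by contrast had 1794, 2490 and 2232 FPKM in treated SMA and 2271, 2316 and 2225 FPKM in untreated controls, and Gad1, the GABA-synthesising enzyme of inhibitory interneurons, 84.2, 99.3 and 54.5 against 147, 100.3 and 76.7 FPKM. The labelled cell type is therefore kept as a label, and the libraries are described as mixed cultures.

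Smn1 (ENSMUSG00000021645, GRCm38 chromosome 13, 100124852 to 100137690) was the gene that set the treated SMA cultures apart. It had 6.82, 5.04 and 7.35 FPKM in treated SMA libraries 1, 2 and 3 and 30.9, 41.2 and 51.2 FPKM in untreated controls. The groups did not overlap, and the treated SMA mean of 6.40 ± 1.21 FPKM was 15.6% of the control mean of 41.1 ± 10.2 FPKM (SD, n = 3 each). By limma on log2(scaled FPKM + 1), Smn1 fell by 2.45 ± 0.19 (SE; adjusted p = 0.000112, between 5.9e-06 and 0.00768 under the alternatives). An exact two-sided permutation test of the FPKM returned p = 0.1, which is as low as groups of 3 can reach. Reads of the SMN2 transgene may have been assigned to mouse Smn1 in both groups, so the level may include transcripts of the transgene. Untreated SMA libraries had 6.11, 7.19 and 8.58 FPKM, which overlaps the treated SMA range.

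Across all genes, Smn1 was the only one of 14982 tested to pass an adjusted p of 0.05 in limma, a called share of 0.00667%. The next lowest adjusted p was 0.312. At an unadjusted p under 0.05, 1273 genes (8.5%) differed, where 749 would be expected with no difference, 796 of them higher (5.31%) and 477 lower (3.18%) in treated SMA. This split depends on the scaling between libraries: with deposited FPKM left unscaled it was 612 higher and 660 lower, and with a common FPKM sum 497 and 875. The 3 libraries of each group did not overlap in 665 genes with higher (4.44%) and 1070 genes with lower (7.14%) deposited FPKM in treated SMA. The median absolute log2 difference was 0.14, and 97 genes differed by more than 1, 63 of them higher and 34 lower. Beside Smn1, all differences described below are given as values that did not pass the adjusted threshold in the main fit. The main fit covers the 12 libraries without a replicate block. With that block 76 genes were called, and some of the genes described below passed under this or other alternatives given at the end.

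**Figure D1:**
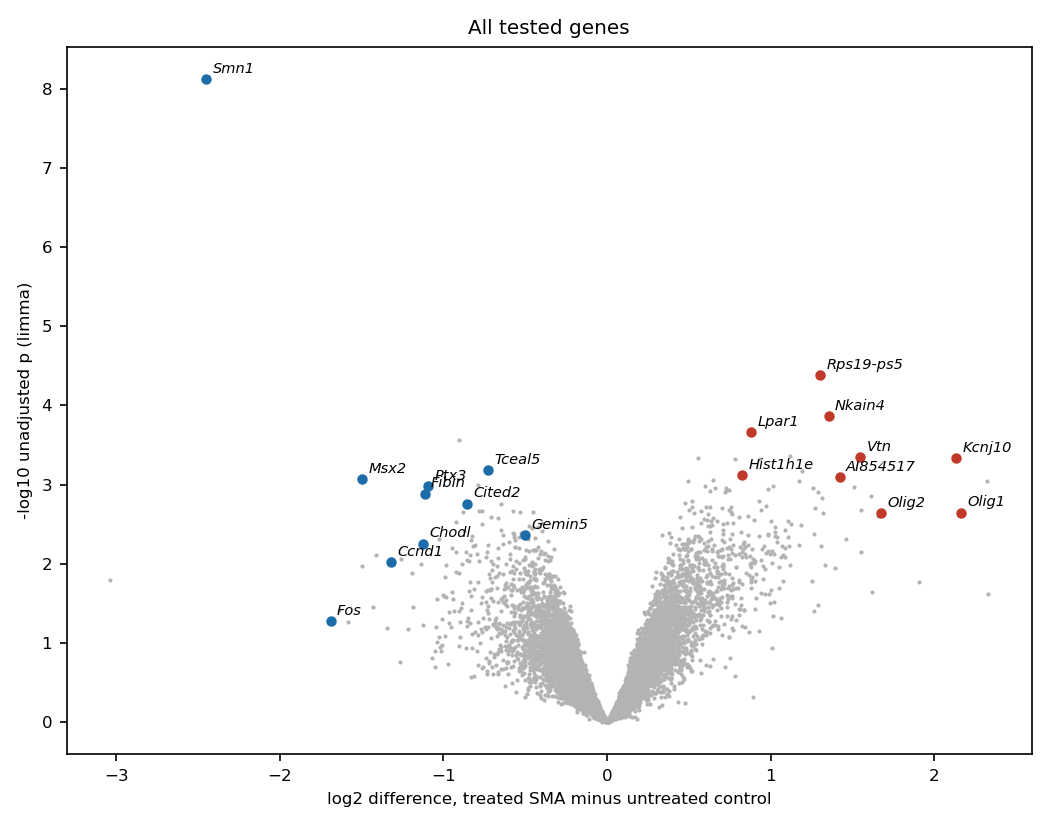
Each point is 1 of 14982 tested genes, plotted by log2 difference (treated SMA minus untreated control, on log2(scaled FPKM + 1)) against -log10 of the unadjusted limma p. Smn1 stands alone at the upper left at -2.45, and the named glial and progenitor genes Kcnj10, Olig1 and Olig2 lie at the far right.

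The same fit gave the neighbouring comparisons, which share libraries with this one. Untreated SMA against untreated control also called Smn1 alone, with 2115 genes (14.1%) at an unadjusted p under 0.05 and a median absolute log2 difference of 0.17. Treated against untreated SMA called 0 genes in limma, with 361 genes (2.41%) at an unadjusted p under 0.05 and a median absolute difference of 0.11. Libraries of these 2 groups with the same number deviated together, and with the pairs as a block 1099 genes (7.34%) were at an unadjusted p under 0.05 and again 0 were called. Untreated SMA against treated control, which uses none of the 6 libraries compared here, called Smn1 alone, with 2650 genes (17.7%) at an unadjusted p under 0.05 and a median absolute difference of 0.18.

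Over all pairs, whole-library distances between the groups were no longer than those inside the control group, which rests on control library 1. The distance used was the median absolute log2 difference over tested genes. Pairs of a treated SMA and an untreated control library lay 0.173 to 0.277 apart (mean 0.228, 9 pairs), and pairs within the untreated controls 0.178 to 0.282 (mean 0.241, 3 pairs), and pairs within treated SMA a mean of 0.200. Treated SMA libraries 1, 2 and 3 had mean distances to the controls of 0.249, 0.190 and 0.245, and untreated SMA libraries 0.271, 0.213 and 0.243. The means of 0.228 ± 0.033 and 0.242 ± 0.029 (SD, n = 3 each) gave p = 0.7 by an exact two-sided permutation test, in which the smallest possible p is 0.1. By number, the treated library lay nearer to the controls in 2 of 3 pairs (exact two-sided sign-flip test, p = 0.5, smallest possible 0.25). Control library 1 lay furthest from its own group (0.273 to the other 2), and treated SMA library 2 was the treated library nearest to the controls. Controls 2 and 3 lay 0.178 apart. Treated SMA libraries 1, 2 and 3 lay 0.230, 0.173 and 0.233 from control 2 and 0.241, 0.178 and 0.229 from control 3. With control library 1 set aside, treated SMA libraries 1 and 3 were thus further from the controls than these were from each other.

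**Figure D2:**
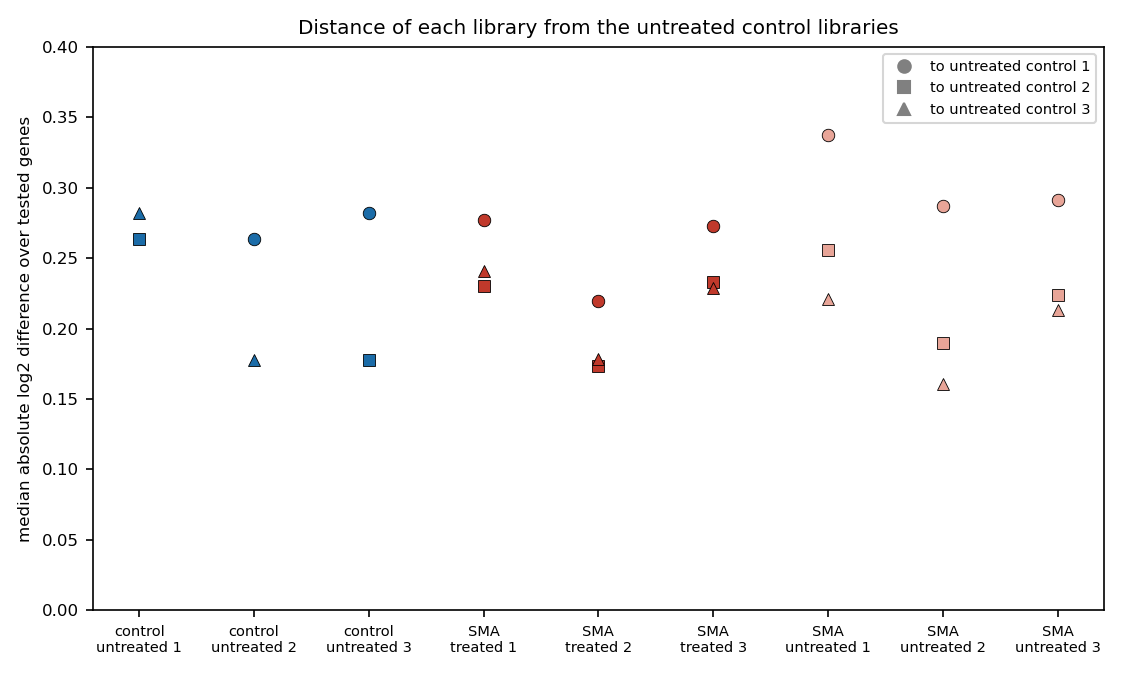
Distance of each library (x axis) from the 3 untreated control libraries (circle, square and triangle for controls 1, 2 and 3), as the median absolute log2 difference over 14982 genes. Treated SMA library 2 lies lowest among the treated SMA libraries, and distances to control 1 are the longest for every SMA library.

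Neural progenitor, oligodendrocyte lineage and astroglia markers had the largest positive list medians. Some lists share members, so their medians are not separate results. Olig2 and Nkx2-2 are both progenitor and oligodendrocyte markers here, and Notch1, Hes1 and Hes5 are both progenitor markers and Notch genes. Of 25 neural progenitor and radial glia markers 21 were tested, and 17 were higher and 4 lower in treated SMA (48.7% of all tested genes were higher). The median log2 difference was 0.66 against -0.01 over all genes, 16 markers were higher at an unadjusted p under 0.05 and 0 lower (5.31% and 3.18% of all genes), and 10 were higher without overlap between the groups (4.44% of all genes). Olig2 (chromosome 16, 91225550 to 91228677), which specifies the ventral progenitors of motoneurons and oligodendrocytes, had 14.3, 2.98 and 8.09 FPKM in treated SMA and 2.3, 1.16 and 1.54 FPKM in untreated control libraries, a log2 difference of 1.67 ± 0.44 (SE; limma adjusted p = 0.468). Library 2 was the lowest of the treated SMA libraries and close to the highest control. Sox1, a transcription factor of dividing neuroepithelium, had 23.4, 16.4 and 28.4 against 11.2, 12.7 and 15.6 FPKM (0.76 ± 0.20). Nkx6-2, Sox3, Nkx6-1 and Nkx2-2, homeobox and Sox-family regulators of ventral or early progenitors, were higher by 1.01, 0.80, 0.68 and 0.64 on the log2 scale. The general neuroepithelial filament genes Nes and Vim were not among the higher members, at -0.11 and -0.10. Without treated SMA library 3 the list median was 0.42 and 6 members were higher at an unadjusted p under 0.05; without control library 2 the latter count was 8, and without control library 1 or treated SMA library 1 it was 10.

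Astroglia markers followed the same direction. Of 23 markers 20 were tested, 17 higher and 3 lower, with a median of 0.62, 12 higher and 1 lower at an unadjusted p under 0.05 (5.31% and 3.18% of all genes), and 5 higher without overlap (4.44%). Kcnj10 (chromosome 1, 172341210 to 172374085), the glial potassium channel Kir4.1, had 12.9, 3.82 and 17.1 FPKM in treated SMA and 1.93, 0.671 and 2.14 FPKM in untreated controls, a difference of 2.13 ± 0.46 (SE; limma adjusted p = 0.468, between 0.0077 and 0.996 under the alternatives). All 3 treated libraries exceeded all 3 controls, with library 2 again the lowest. Slc1a3 (chromosome 15, 8634124 to 8710764), the glutamate transporter GLAST of radial glia and astrocytes, had 72.0, 60.4 and 104 against 45.2, 28.7 and 52.1 FPKM (0.94 ± 0.25). Gfap, the astrocyte filament protein, had 2.77, 0.469 and 1.9 against 0.253, 0.27 and 0.297 FPKM (1.0 ± 0.38). Aldoc, a glycolytic enzyme of astrocytes, had 35.1, 7.14 and 28.8 against 8.19, 9.95 and 5.77 FPKM, so that library 2 fell among the controls. The member lower at an unadjusted p under 0.05 was Tnc, the matrix protein tenascin C, at -0.72. The number of members higher at an unadjusted p under 0.05 was 6 without treated SMA library 1 or 3 and 8 without control library 1 or 2. In bulk libraries, more cells of a type and more RNA per cell cannot be told apart.

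Among the 6 libraries compared, the early oligodendrocyte genes Olig1 and Olig2 were highest in treated SMA libraries 1 and 3. Olig1 (chromosome 16, 91269769 to 91271939), the neighbour of Olig2 and a regulator of oligodendrocyte precursors, had 59.8, 9.15 and 37.3 FPKM in treated SMA and 8.06, 3.97 and 5.34 FPKM in untreated control libraries, the largest positive difference among the named genes at 2.16 ± 0.57. The summed level of 17 oligodendrocyte lineage markers was 93.0, 24.7 and 63.2 FPKM against 24.8, 19.8 and 17.9 FPKM. Untreated SMA libraries 1, 2 and 3 had much the same sums as treated SMA, at 86.7, 31.4 and 59.6 FPKM. Only 7 of the 17 markers were tested, and Pdgfra, Mag, Mobp, Gpr17, Bcas1, Myrf, Enpp6 and Opalin were below 1 FPKM in all 12 libraries. Of the 7, 5 were higher and 2 lower. The transcription factors Olig1, Olig2 and Nkx2-2 were at 2.16, 1.67 and 0.64, without overlap. Cnp, an enzyme of myelin-forming cells, was at 0.66 with overlap, and Mbp, myelin basic protein, at -0.57 without overlap. Cspg4, the proteoglycan NG2 of precursor cells, was at -0.14. Against the same untreated controls, the list median was 0.71 in untreated SMA and 0.64 in treated SMA. Between treated and untreated SMA it was -0.05.

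**Figure D3:**
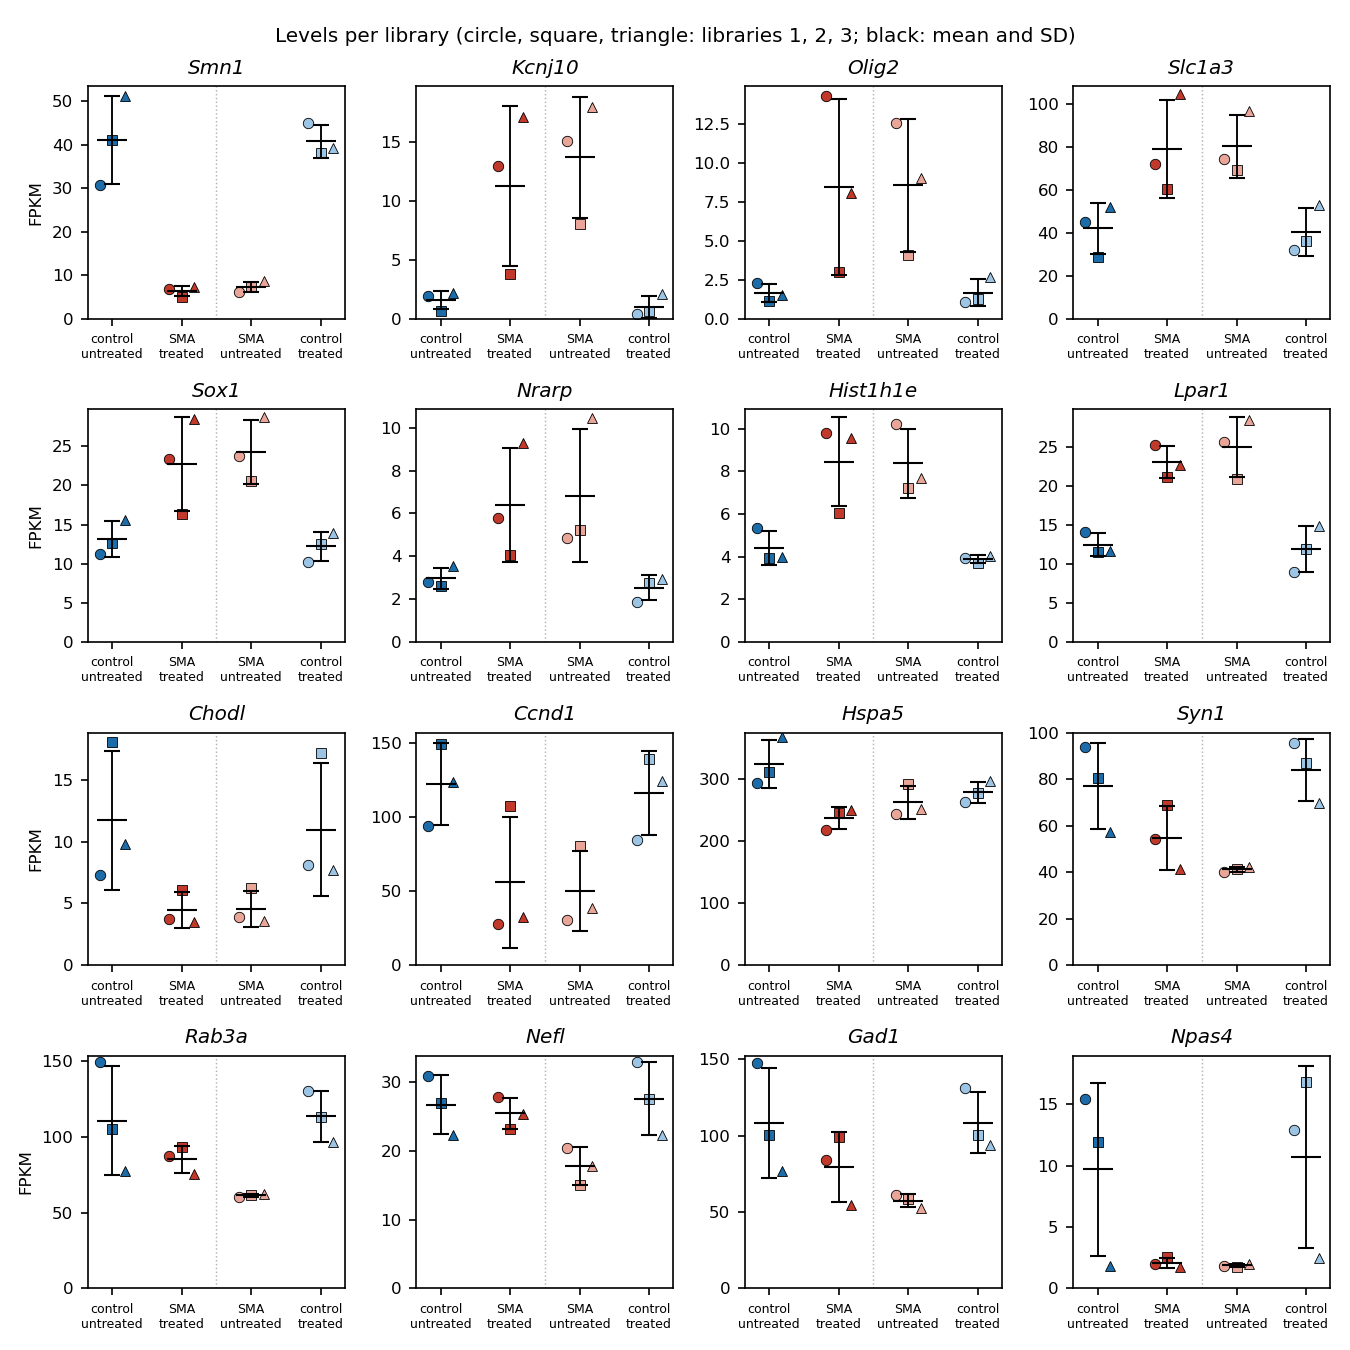
FPKM of 16 genes in each of the 12 libraries; circles, squares and triangles are libraries 1, 2 and 3, black marks the mean and SD of 3 libraries, and the dotted line parts the 2 groups compared here (left) from the other 2 (right). Kcnj10, Olig2 and Slc1a3 stand higher and Smn1 and Chodl lower in treated SMA than in untreated controls, while the 3 Nefl values of treated SMA (23.2 to 27.8) lie within the control range.

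Genes of the Notch pathway, by which a signalling cell holds its neighbour in a progenitor or glial state, were higher as a list by 0.53 in the median. Of 19 tested members 12 were higher and 7 lower, 8 were higher and 0 lower at an unadjusted p under 0.05 (5.31% and 3.18% of all genes), and 3 were higher without overlap (4.44%). Among ligands, Dll1 had 9.79, 5.8 and 12.2 FPKM in treated SMA and 6.0, 3.73 and 5.74 FPKM in untreated controls (0.74 ± 0.24), whereas Jag1 and Jag2 differed by -0.10 and -0.08. Among receptors, Notch1 had 47.2, 29.1 and 38.9 against 26.0, 23.9 and 22.5 FPKM (0.66 ± 0.28) without overlap, and Notch2 differed by -0.03. Among targets, Nrarp, a feedback inhibitor of Notch signalling, had 5.78, 4.06 and 9.30 against 2.78, 2.59 and 3.54 FPKM (0.87 ± 0.28). The target Hes5 was higher by 0.83 at a low level (1.40 ± 1.35 against 0.243 ± 0.227 FPKM, SD, n = 3), while Hes1 differed by -0.14 (19.9 ± 0.673 against 23.8 ± 9.14 FPKM). The list median was 0.27 without treated SMA library 3, where 2 members were higher at an unadjusted p under 0.05, and 0.28 among genes of at least 5 FPKM. That count was 3 without treated SMA library 1 and 4 without control library 2 or 3. The letters TGGGAA, the core bound by the Notch effector RBPJ, stood on either strand in the 250 bases upstream of the start in 4 of 16 members with a RefSeq promoter, or 25%, and in 21.6% of all 32851 promoters.

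BMP and Id genes differed in both directions, none past the adjusted threshold in the main fit. Of 16 tested members 9 were higher and 7 lower. At an unadjusted p under 0.05, 4 were higher and 2 lower (5.31% and 3.18% of all genes). Msx2 (chromosome 13, 53467877 to 53473074), a homeobox target of BMP signalling, had 1.22, 5.20 and 2.56 FPKM in treated SMA and 8.99, 12.1 and 8.02 FPKM in untreated controls (-1.50 ± 0.35). Nog, a secreted BMP antagonist, had 8.05, 7.55 and 8.71 against 3.37, 4.97 and 5.87 FPKM (0.72 ± 0.17). Neither gene overlapped between the groups. Without control library 2 or treated SMA library 3, 2 members were higher and 1 lower at an unadjusted p under 0.05, and without control library 1 there were 4 and 1.

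Replication-dependent histone genes, whose messages are made in S phase and normally end in a stem-loop in place of a poly(A) tail, were mostly higher. Of 47 listed genes 37 were tested, 36 higher and 1 lower (Hist1h4h, at -0.02), with a median of 0.45. At an unadjusted p under 0.05, 17 were higher and 0 lower (5.31% and 3.18% of all genes), and 8 were higher without overlap (4.44%). Their levels were low: Hist1h1e, a linker histone (chromosome 13, 23621755 to 23622502), had 9.78, 6.03 and 9.56 FPKM in treated SMA and 5.34, 3.92 and 3.96 FPKM in untreated controls, a difference of 0.83 ± 0.19 (SE; limma adjusted p = 0.468). Hist1h2bn, an H2B gene, had 1.71, 0.814 and 1.68 against 0.564, 0.638 and 0.315 FPKM (0.67 ± 0.18). All 3 treated libraries exceeded all controls in both genes. The summed level of the 47 listed genes did overlap, at 153, 124 and 202 FPKM in treated SMA and 151, 89.7 and 88.7 FPKM in untreated controls. Control library 1 stood apart from its group there and exceeded treated SMA library 2. Histone genes are near-identical copies between which reads can be split, and single members are uncertain for that reason. The count at an unadjusted p under 0.05 was 10 without control library 3 or treated SMA library 1 and 7 without treated SMA library 3. Of the cell cycle and replication genes 45 were tested, 25 higher and 20 lower, with a median of 0.01 that was 0.10 without control library 3, -0.05 without control library 1 and turned to -0.03 without scaling and -0.07 with a common FPKM sum. Mki67, a marker of dividing cells, had 73.1, 68.9 and 68.0 against 56.5, 62.7 and 81.9 FPKM.

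The upstream sequences of the 3 histone genes with the lowest p are shown because 2 promoter elements recur in this list. Each run is the 250 bases before the RefSeq start (build GRCm38.p6), on the strand of the gene. Capitals mark CCAAT, the box bound by NF-Y, and TATAAA, the TATA box, in either direction (ATTGG and TTTATA).
Hist1h1e (chr13:23622559-23622808, minus strand): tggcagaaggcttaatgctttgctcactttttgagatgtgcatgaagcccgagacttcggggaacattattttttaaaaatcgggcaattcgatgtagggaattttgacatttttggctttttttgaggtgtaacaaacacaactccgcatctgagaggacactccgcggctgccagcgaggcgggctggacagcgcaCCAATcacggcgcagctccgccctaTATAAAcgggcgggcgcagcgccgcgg
Hist1h2bn (chr13:21753826-21754075, plus strand): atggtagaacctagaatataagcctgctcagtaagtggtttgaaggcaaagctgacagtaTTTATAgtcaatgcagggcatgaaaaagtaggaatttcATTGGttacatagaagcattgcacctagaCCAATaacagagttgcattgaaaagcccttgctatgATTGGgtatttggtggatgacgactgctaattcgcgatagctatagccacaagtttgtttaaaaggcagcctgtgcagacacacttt
Hist1h3b (chr13:23752095-23752344, plus strand): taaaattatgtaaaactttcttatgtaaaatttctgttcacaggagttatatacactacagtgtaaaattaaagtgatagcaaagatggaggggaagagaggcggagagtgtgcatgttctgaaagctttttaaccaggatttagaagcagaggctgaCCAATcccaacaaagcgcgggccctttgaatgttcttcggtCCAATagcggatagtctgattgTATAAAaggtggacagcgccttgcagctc

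In Hist1h1e the CCAAT begins 52 and the TATAAA 27 bases before the start, and in Hist1h3b the nearer CCAAT begins 51 and the TATAAA 29 bases before it. Hist1h2bn has no TATAAA near its start in these letters; its forward CCAAT begins 123 bases upstream, and TTTATA begins 190 bases upstream. Of the 37 tested histone genes 35 matched a RefSeq promoter by symbol or synonym. CCAAT stood in 26 of the 35 (74.3%) and in 33.8% of all promoters, TATAAA in 19 (54.3%) and in 12.4%, and both in 14 (40.0%) and in 4.40%. The 2 motifs share no overlapping letters in these runs, and a match describes the letters only.

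The 13 protein-coding genes of mitochondrial DNA, all subunits of the respiratory chain or the ATP synthase, were all higher, with a median of 0.31. At an unadjusted p under 0.05, 9 were higher and 0 lower (5.31% and 3.18% of all genes), and 10 were higher without overlap (4.44%). mt-Nd3, a subunit of complex I, had 4997, 4015 and 4078 FPKM in treated SMA and 2785, 3770 and 3471 FPKM in untreated controls (0.43 ± 0.15). mt-Atp8, of the ATP synthase, had 5998, 5195 and 5568 against 3992, 4658 and 4989 FPKM (0.34 ± 0.12). Treated SMA library 1 was the highest in both. Without it the median was 0.20 and 0 members passed an unadjusted p of 0.05; without control library 1 or 3 the count was 3 or 2, and with quantile normalization the median was 0.04. The 45 nuclear genes of oxidative phosphorylation had a median of 0.00, with 24 higher and 21 lower, and 0 higher and 1 lower at an unadjusted p under 0.05. Cytosolic ribosomal protein genes had a median of 0.10, with 43 of 62 higher, which was 0.05 without control library 3 and 0.15 without control library 1. The nuclear oxidative phosphorylation median was 0.11 without control library 1.

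Genes of neuronal output had negative medians. Presynaptic vesicle release genes had a median of -0.17, with 13 higher and 30 lower of 43 tested, and 1 higher and 3 lower at an unadjusted p under 0.05 (5.31% and 3.18% of all genes). Syn1, the vesicle protein synapsin I, had 54.4, 68.8 and 41.2 FPKM in treated SMA and 93.8, 80.4 and 57.3 FPKM in untreated controls (-0.45 ± 0.20), and the groups overlapped. Rab3a, a vesicle GTPase, had 87.2, 93.1 and 75.6 against 149, 105 and 77.8 FPKM (-0.29 ± 0.19), also with overlap. The controls spread widely here, from control 1, the highest in both genes, to control 3, the lowest. Without control library 1 the list median was -0.02, and without treated SMA library 3 it was -0.09. The number of members lower at an unadjusted p under 0.05 was 0 without either of these libraries, 2 without treated SMA library 1 and 8 without control library 3.

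Neurofilament, microtubule and growth cone genes had a median of -0.14, with 10 higher and 20 lower of 30. At an unadjusted p under 0.05, 0 were higher and 3 lower (5.31% and 3.18% of all genes). Nefl (chromosome 14, 68083863 to 68089095), the light neurofilament subunit, had 27.8, 23.2 and 25.4 FPKM in treated SMA and 30.9, 26.9 and 22.4 FPKM in untreated control libraries, a difference of -0.02 ± 0.17. Untreated SMA libraries had 20.5, 15.0 and 17.9 FPKM, below every library of both other groups. Crmp1 and Kif5c, a growth cone phosphoprotein and a kinesin motor, were lower without overlap, at -0.41 ± 0.18 each. The list median was 0.03 without control library 1, -0.02 without treated SMA library 3, -0.26 without control library 3 and -0.20 without treated SMA library 1. Without control library 1, 5 members were higher and 0 lower at an unadjusted p under 0.05, and without treated SMA library 3 there were 0 in either direction; the lower count was 1 without treated SMA library 1 and 2 without treated SMA library 2.

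Voltage-gated calcium channel genes, which include the Cav2 subunits on which R-Roscovitine acts, had a median of -0.10, with 6 higher and 15 lower of 21. At an unadjusted p under 0.05 there were 0 in either direction (5.31% higher and 3.18% lower of all genes). Cacna1a, the Cav2.1 pore, had 16.5, 15.3 and 15.4 FPKM in treated SMA and 19.8, 18.4 and 14.7 FPKM in untreated controls (-0.10 ± 0.13). Cacna1b, the Cav2.2 pore, had 14.9, 16.7 and 8.11 against 18.3, 12.7 and 11.4 FPKM (-0.08 ± 0.24). Both overlapped. The list median was 0.04 without control library 1, -0.04 without treated SMA library 3 and between -0.18 and -0.17 without control library 2, control library 3 or treated SMA library 1. Neurotransmitter receptors and sodium and potassium channels both had medians of -0.08, which became 0.01 and 0.03 without treated SMA library 3, -0.04 and -0.01 without control library 1, -0.05 and -0.15 without control library 3 and -0.13 and -0.15 without treated SMA library 1; the channel median was -0.04 without control library 2.

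Spinal interneuron markers had a median of -0.16, with 8 higher and 10 lower of 18. Slc6a5, the glycine transporter of inhibitory neurons, had 20.2, 21.3 and 13.6 FPKM in treated SMA and 28.6, 27.1 and 21.6 FPKM in untreated controls (-0.44 ± 0.20), without overlap. Their summed level was 247, 261 and 176 against 370, 264 and 224 FPKM. The list median was 0.02 without control library 1, -0.02 without treated SMA library 3 and -0.28 without control library 3.

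**Figure D4:**
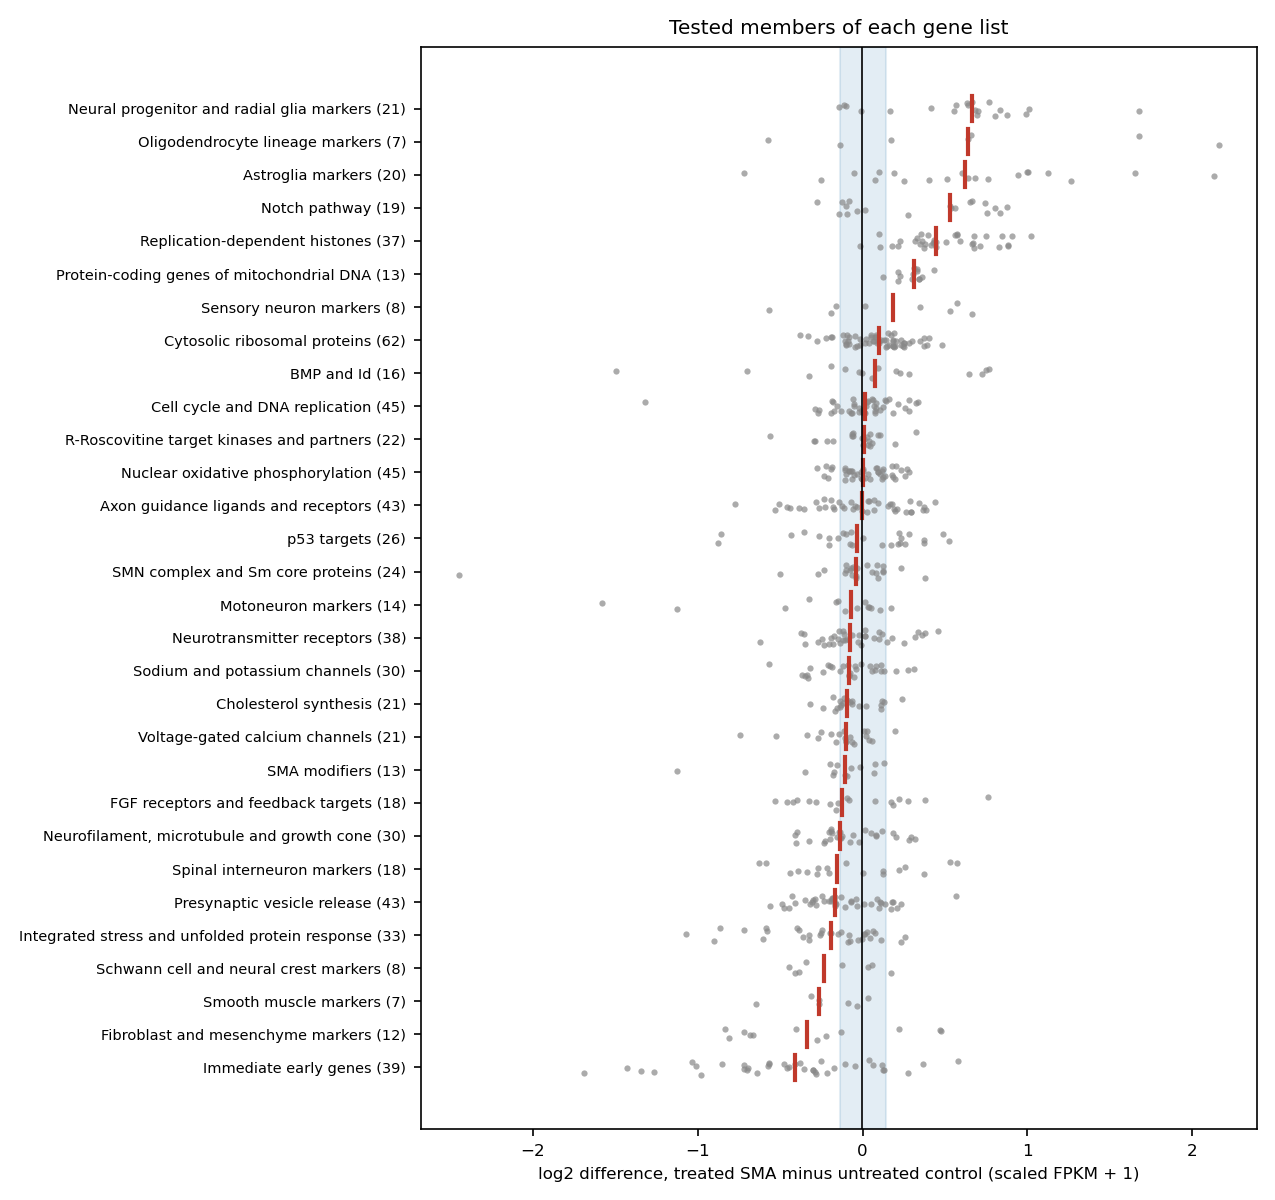
Log2 difference (treated SMA minus untreated control) of each tested member (grey points) and the list median (red bar); the number of tested members is in brackets, the black line is the median of all 14982 genes and the shaded band holds their middle 50%. The medians of the progenitor, astroglia, oligodendrocyte, Notch, histone, mitochondrial and sensory neuron lists lie to the right of the band. Those of the immediate early, fibroblast, smooth muscle, Schwann cell, stress response, presynaptic and interneuron lists lie to its left. The cytoskeletal, calcium channel, receptor, sodium and potassium channel and motoneuron medians lie inside it.

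Set side by side with the untreated SMA cultures, which were compared with the same control libraries, the lists had these medians. The values for untreated and then treated SMA were 0.71 and 0.66 for progenitor markers, 0.70 and 0.62 for astroglia, 0.41 and 0.53 for Notch, 0.48 and 0.45 for histones and 0.26 and 0.31 for mitochondrial genes. They were -0.38 and -0.17 for presynaptic genes, -0.38 and -0.14 for cytoskeletal genes, -0.31 and -0.10 for calcium channels, -0.42 and -0.16 for interneuron markers and -0.40 and -0.07 for the 14 tested motoneuron markers. Both columns of medians rest on the same 3 control libraries, so their likeness is no result. Untreated SMA against treated control, which uses neither the treated SMA nor the untreated control libraries, had medians of 0.80 for progenitor, 0.84 for astroglia, 0.60 for Notch, 0.63 for histone, -0.54 for presynaptic, -0.39 for cytoskeletal, -0.32 for calcium channel, -0.60 for interneuron and -0.45 for motoneuron lists. Its mitochondrial median was 0.11, with 0 of 13 genes at an unadjusted p under 0.05 (17.7% of all genes) and 0 without overlap. Its libraries cannot be taken as independent of those compared here. Libraries of 1 genotype and number deviated together, at correlations of 0.45 to 0.57 in SMA and 0.24 to 0.60 in controls. The direct contrast of treated with untreated SMA had medians of 0.22 for presynaptic (40 of 43 higher), 0.22 for cytoskeletal (29 of 30), 0.18 for calcium channel (20 of 21) and 0.31 for interneuron genes (18 of 18), where 50.4% of all genes were higher. It called none of them: at an unadjusted p under 0.05, 6, 2, 2 and 1 members were higher and 0 lower, against 1.53% and 0.881% of all genes. With treated and untreated SMA libraries of the same number paired as a block, these counts were 15, 17, 4 and 9 higher and 0 lower, against 4.88% and 2.46% of all genes, and limma again called none (lowest adjusted p of any gene 0.616). In all 3 pairs the summed level was higher in the treated library. Untreated and then treated SMA libraries 1, 2 and 3 had sums of 1041, 959 and 969 and then 1312, 1400.4 and 1029.9 FPKM for presynaptic genes. For calcium channel genes the sums were 194, 187 and 197 and then 252, 245 and 205 FPKM. Cytoskeletal genes summed to 5186, 4471 and 4672 and then 5928, 5153 and 4879 FPKM, and interneuron markers to 193, 171 and 161 and then 247, 261 and 176 FPKM. Pair 3 differed least in each of the 4 lists. Sums of control libraries were also higher under treatment in all 3 pairs for some of these lists. These were presynaptic genes (1784, 1489 and 1218, then 1967, 1605 and 1408 FPKM) and interneuron markers (370, 264 and 224, then 389, 273 and 253 FPKM). Calcium channel and cytoskeletal sums were lower in control pair 1 and higher in pairs 2 and 3. Of 45 cell cycle genes, 37 were lower in treated than in untreated SMA. At an unadjusted p under 0.05, 2 were lower and 0 higher, and with the pairs as a block 5 and 0. Their sums were lower under treatment in all 3 SMA pairs (2510.5, 2891.5 and 2692, then 2301, 2627 and 2661 FPKM). The same held in all 3 control pairs (2414, 2500 and 2878, then 2063.5, 2461 and 2766.5 FPKM). Nefl was higher by 0.50 and Rab3a by 0.46 in the unpaired contrast, with a limma adjusted p of 0.999 each.

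**Figure D5:**
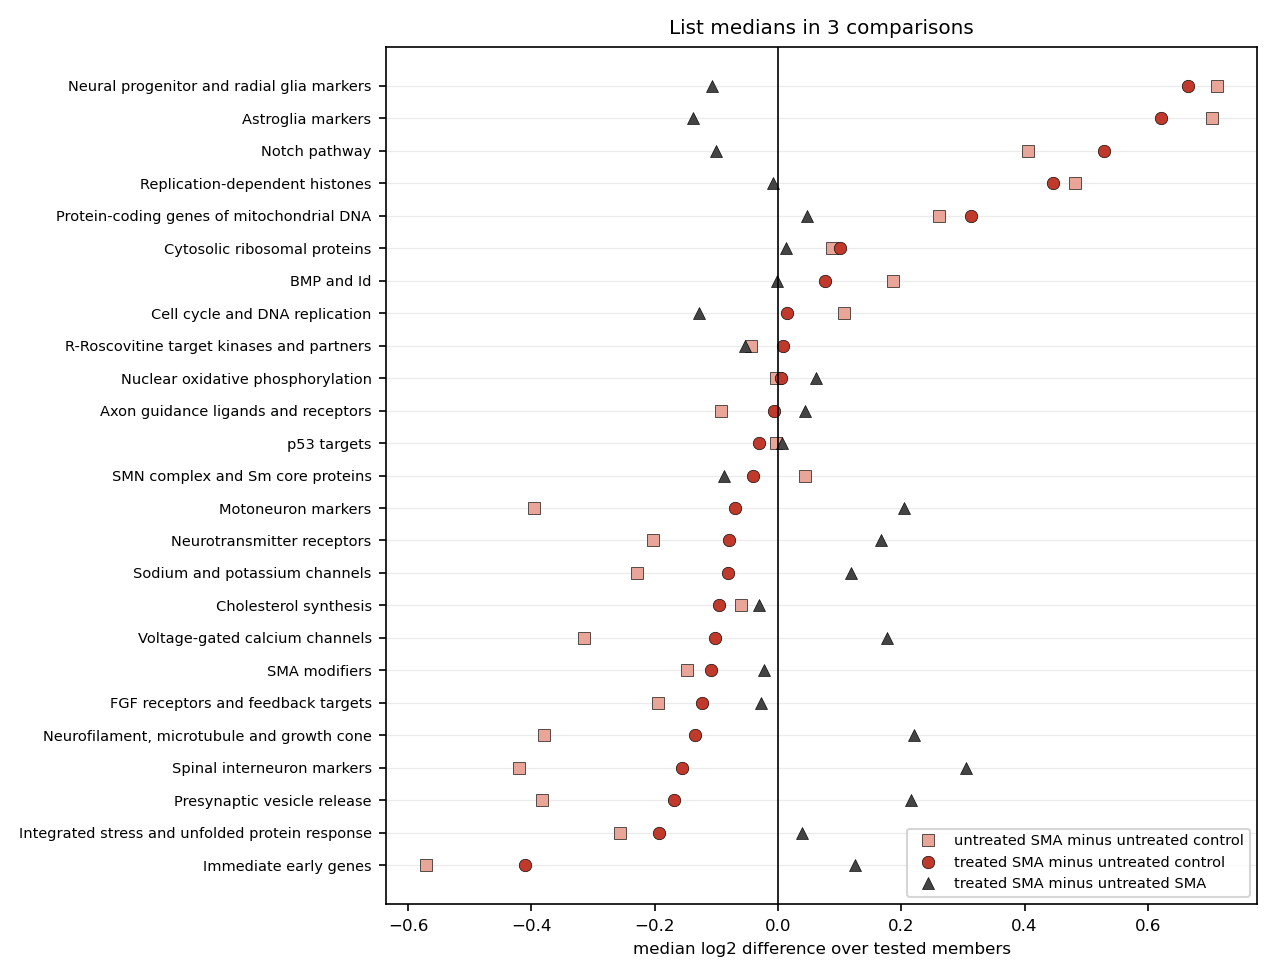
Median log2 difference over the tested members of lists with 13 or more, in untreated SMA minus untreated control (squares), treated SMA minus untreated control (circles) and treated minus untreated SMA (triangles); each pair of these comparisons shares a group of libraries. Presynaptic genes lie at -0.38 (square), -0.17 (circle) and 0.22 (triangle), and progenitor markers at 0.71 (square) and 0.66 (circle).

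Few motoneuron markers could be tested. Of the 14, 6 were higher and 8 lower, and 2 were lower at an unadjusted p under 0.05 (3.18% of all genes). The median of -0.07 was -0.15 without control library 3 and -0.13 without treated SMA library 1. Chodl (chromosome 16, 78930948 to 78951733), a membrane lectin of fast motoneurons also listed among genes that modify spinal muscular atrophy, had 3.76, 6.13 and 3.53 FPKM in treated SMA and 7.32, 18.1 and 9.82 FPKM in untreated control libraries (-1.13 ± 0.34; limma adjusted p = 0.468). Untreated SMA had 3.87, 6.23 and 3.60 FPKM. Mmp9, a matrix protease of vulnerable motoneurons, had 1.07, 1.10 and 1.08 against 2.2, 2.28 and 1.44 FPKM (-0.47 ± 0.17). Neither gene overlapped between the groups.

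Within the SMN complex and the Sm core, Smn1 was the outstanding member. The other tested genes were 10 higher and 13 lower, and the list median including Smn1 was -0.04, or 0.01 without control library 3 and 0.02 without treated SMA library 1. Gemin5, which recognises small nuclear RNAs for the complex, had 4.72, 5.65 and 5.19 FPKM in treated SMA and 7.41, 7.79 and 8.76 FPKM in untreated controls (-0.50 ± 0.15), without overlap, and untreated SMA libraries 4.16, 5.09 and 6.05 FPKM. Gemin2, which binds SMN directly, had 6.75, 7.60 and 7.41 against 7.23, 7.19 and 9.60 FPKM (-0.08 ± 0.17), and Snrpb, an Sm protein, 50.7, 66.4 and 74.4 against 77.1, 60.3 and 63.1 FPKM (-0.03 ± 0.15). Gemin2 and Snrpb overlapped.

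Target kinases of R-Roscovitine and their binding partners had a median of 0.01 (12 higher and 10 lower of 22), which was -0.03 without scaling and -0.04 without treated SMA library 3. Cdk1 had 120, 103 and 136 FPKM in treated SMA and 122, 101 and 132 FPKM in untreated controls, Cdk5 15.0, 17.6 and 15.4 against 19.8, 16.0 and 12.8 FPKM, and Cdk9, a kinase of transcription elongation, 17.3, 14.9 and 21.1 against 22.1, 20.9 and 20.7 FPKM. All overlapped. Ccnt1, the cyclin partner of Cdk9, had 8.03, 9.24 and 10.6 against 11.3, 15.4 and 17.7 FPKM (-0.57 ± 0.17), without overlap. Ccnd1, cyclin D1 (chromosome 7, 144929931 to 144939869), had 28.0, 107 and 32.8 against 94.3, 150 and 124 FPKM (-1.32 ± 0.44), with treated SMA library 2 inside the control range. The p53 target list had a median of -0.03 (13 higher and 13 lower) that was 0.17 without control library 2 and 0.12 without treated SMA library 1 and -0.11 without control library 1, and its best known member Cdkn1a, the p21 inhibitor of cell division, 110, 181 and 147 against 156, 192 and 164 FPKM.

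Immediate early genes, which neurons and other cells switch on within minutes of a stimulus, had the lowest median, -0.41. Of 39 tested, 8 were higher and 31 lower. At an unadjusted p under 0.05, 1 was higher and 6 were lower (5.31% and 3.18% of all genes). Npas4, an early gene induced by calcium entry in neurons, had 1.95, 2.55 and 1.73 FPKM in treated SMA and 15.4, 11.9 and 1.83 FPKM in untreated controls (-1.43 ± 0.61). Fos had 17.8, 8.40 and 5.36 against 50.6, 82.5 and 8.51 FPKM (-1.69 ± 0.80). Control library 3 lay near the treated SMA libraries in both, and the summed list level was 472, 471 and 385 FPKM against 660, 1019 and 437 FPKM. Without control library 2 the median was -0.24 with 1 member lower at an unadjusted p under 0.05, without treated SMA library 3 that count was 0, without treated SMA library 2 it was 11, and without control library 3 it was 16.

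Stress response genes (integrated stress response and unfolded protein response) had a median of -0.19, with 9 higher and 24 lower of 33. At an unadjusted p under 0.05, 0 were higher and 2 lower (5.31% and 3.18% of all genes). Hspa5 (chromosome 2, 34771970 to 34776531), the chaperone BiP of the endoplasmic reticulum, had 217, 245 and 250 FPKM in treated SMA and 293, 311 and 368 FPKM in untreated controls (-0.40 ± 0.11), without overlap. Herpud1, of the degradation machinery at the same membrane, had 21, 39.3 and 15.6 against 35.3, 43.3 and 43.3 FPKM (-0.72 ± 0.25). Treated SMA library 2 lay inside the control range of Herpud1. The list median was -0.04 without treated SMA library 1, -0.10 without control library 3 and -0.31 without treated SMA library 2, where 13 members were lower at an unadjusted p under 0.05; that count was 4 without control library 1, 3 without control library 2 and 1 without treated SMA library 3.

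Non-neural markers differed less evenly. Fibroblast and mesenchyme markers had a median of -0.34 (3 higher and 9 lower of 12), which was 0.04 without control library 2 and -0.61 and -0.52 without control library 1 and 3, and their summed level was 159, 261 and 162 FPKM in treated SMA and 209, 424 and 263 FPKM in untreated controls. Col1a1, a fibrillar collagen, had 11.9, 16.6 and 7.45 against 8.86, 63.1 and 16.8 FPKM. Smooth muscle markers had a median of -0.26 (1 higher and 6 lower of 7), which was -0.14 without treated SMA library 1. Of the lower, 2 were without overlap (7.14% of all genes). The markers summed to 3090.1, 4069.7 and 3658 against 3964, 3913 and 3849.9 FPKM. Schwann cell and neural crest markers had a median of -0.23 (3 higher and 5 lower of 8) and sensory neuron markers of 0.18 (5 higher and 3 lower of 8). The Schwann cell median was -0.01 without control library 2 and -0.12 without treated SMA library 3, and the sensory median 0.03 without treated SMA library 1, 0.12 without control library 3 and 0.30 without control library 2 or treated SMA library 2. Endothelial and macrophage markers were low, with sums of 7.88 to 12.0 and 5.88 to 12.3 FPKM in treated SMA and 9.0 to 9.27 and 9.14 to 11.8 FPKM in untreated controls.

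Other lists had medians nearer to that of all genes. Axon guidance genes had a median of -0.01 (21 higher and 22 lower of 43), cholesterol synthesis genes -0.10 (6 and 15 of 21), FGF receptors and feedback targets -0.12 (7 and 11 of 18) and genes known to modify spinal muscular atrophy -0.11 (3 and 10 of 13). Single libraries moved these medians. Without treated SMA library 3 the FGF median was -0.03 and the cholesterol median -0.04, and without treated SMA library 2 the FGF median was -0.21. Without treated SMA library 1 they were -0.06 and -0.15, and without control library 1 the cholesterol median was -0.06. The modifier median was -0.03 without control library 2, and the axon guidance median lay between -0.06 (without control library 3) and 0.08 (without treated SMA library 1). Pls3, a modifier that bundles actin, had 41.5, 43.1 and 38 FPKM in treated SMA and 39.9, 74.2 and 52.9 FPKM in untreated controls (-0.35 ± 0.22), with overlap.

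Over the whole table, the 12 higher genes with the lowest p at 3 FPKM or more included Kcnj10 and Hist1h1e, described above. Lpar1 (chromosome 4, 58435255 to 58553898), a lysophosphatidic acid receptor, had 25.2, 21.1 and 22.7 FPKM in treated SMA and 14.1, 11.5 and 11.7 FPKM in untreated controls, a difference of 0.88 ± 0.17. Nkain4, which binds a subunit of the sodium pump, had 8.16, 5.12 and 11.4 against 2.18, 3.44 and 2.16 FPKM (1.35 ± 0.26). Vtn, the adhesion protein vitronectin, had 6.13, 2.52 and 7.59 against 1.02, 1.45 and 0.839 FPKM (1.55 ± 0.33). The ciliary gene Ift81 was higher by 0.56 ± 0.12, and the uncharacterised genes AI854517 and 1700009P17Rik by 1.42 ± 0.33 and 1.19 ± 0.27. Armc2 differed by 0.78 ± 0.17. None of the 12 overlapped between the groups, and apart from Rps19-ps5 each had a limma adjusted p of 0.468. Rps19-ps5 (17.3, 9.10 and 11.8 against 5.97, 4.63 and 3.32 FPKM, 1.30 ± 0.22, limma adjusted p = 0.312) and Gm5459 (1.12 ± 0.24) can share reads with near-identical gene copies, and Gm12925 (0.94 ± 0.20) with overlapping genes, so these values are uncertain.

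The 12 lower genes with the lowest p were, after Smn1, led by Tceal5, which had 21.6, 27.4 and 23.8 FPKM in treated SMA and 49.0, 42.7 and 35.3 FPKM in untreated controls (-0.73 ± 0.16). Ptx3, a secreted pentraxin of innate immunity, had 6.57, 15.3 and 7.26 against 22.1, 19.9 and 21.3 FPKM (-1.10 ± 0.26). Cited2, a transcriptional co-regulator, had 25.2, 48.8 and 28.2 against 53.5, 72.4 and 60.8 FPKM (-0.86 ± 0.22). Treated SMA library 2 was the nearest to the controls in all 3. Bcat2, the mitochondrial branched-chain aminotransferase, was lower by -0.65 ± 0.17, the folate receptor gene Folr1 by -0.88 ± 0.23 and Sytl2, an effector of Rab27, by -0.77 ± 0.20. Fibin, Rerg and Simc1 differed by -1.12 ± 0.27, -0.78 ± 0.21 and -0.57 ± 0.15. The pseudogene Llph-ps1 (-0.53 ± 0.14) can share reads with its parent gene.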

How the data were processed

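Per the labels' protocols, Lexogen's mRNA-Seq kit (V2) was used on Nucleospin-purified RNA. Quantification was with Cufflinks 2.2.1 on GRCm38, after Trim Galore 0.4.0 and FastQC 0.10.1, per the submitters' processing notes. How reads were aligned, and whether by strand, is not given in the sources used here. As values the authors deposited FPKM for each gene, normalised by length and depth, and no counts. The tables hold 39196 entries for 39174 gene identifiers, and values of the 19 identifiers on several lines were summed. Of low values times length, 34.9% to 38.3% lay within 0.01 reads of a whole multiple of a step. The step was searched within a set range that leaves out its fractions and multiples. It gave an estimated depth but not the counts, so no count model was used.

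FPKM were scaled by median-of-ratios factors and tested as log2(scaled FPKM + 1) with limma 3.58.1 in R 4.3.3 (4 group means over 12 libraries, trended spread, two-sided, Benjamini-Hochberg adjustment over all genes). Genes reaching an FPKM of 1 in 3 or more libraries entered the test, without small RNAs. On this scale the differences of weakly expressed genes are understated. The fit was tested on simulated data. Overlap of groups was judged on deposited FPKM. No set test was used: the 34 gene lists are described by counts and medians. The members, lists and tests were chosen with earlier results of these data known. Named genes are Smn1, the 12 higher and 12 lower genes with the lowest p at a group mean of at least 3 FPKM, the 2 members with the lowest p of each list and a fixed set of defining genes; members named beyond these were chosen after their values were seen. Deviations of libraries with the same number correlated at 0.45 to 0.57 across genes between treated and untreated SMA. The number was therefore taken to pair these 2 groups, with a blocked fit added after seeing the data. Between treated and untreated controls such deviations correlated at 0.24 to 0.60. They correlated at 0.05 to 0.19 between the groups compared here, and the main fit does not pair these by number. Summed p53 target levels were nonetheless lowest in library 1 and highest in library 2 of each of the 4 groups. Axon guidance sums had no such shared order. Whether libraries of 1 number share a batch across genotypes was not tested. Promoter sequences are from RefSeq (GRCm38.p6). Alternatives were scaling, filters, pseudocount, library weights, a replicate block and leaving out each library. Python 3.11.15, pandas 2.3.3 and matplotlib 3.10.9 made tables and figures.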

Additional observations from a re-analysis of the deposited data

How the results depend on the processing

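Smn1 passed the threshold under every alternative run, and its difference in scaled FPKM was -33.7 against -34.7 in deposited FPKM. It was also the only gene called under other scalings, pseudocounts and filters, with the 6 libraries alone, and with a random effect for libraries of 1 genotype and number, an alternative chosen after seeing the data. Library weights called 3 genes, 2 of them higher (Gm5459 and Rps19-ps5), and 3015 passed an unadjusted p of 0.05. Leaving out 1 library at a time called 1 to 43 genes, with 0 to 34 higher and 1 to 9 lower, and put 664 to 2045 at an unadjusted p under 0.05; the 43 came without treated SMA library 2, and without control library 1 there were 2. Those 43 include Kcnj10, Olig1, Olig2, Msx2, Herpud1, Ccnd1, Hist1h1e and Cited2, named above. The cause of the differing counts was not tested. With the replicate block, 76 genes were called, 41 higher and 35 lower, and 1911 passed an unadjusted p of 0.05. The 76 include Kcnj10, Slc1a3, Msx2, Chodl, Ccnd1, Folr1, Cited2, Sytl2, AI854517 and Rps19-ps5, named above. The replicate block called 327 genes between untreated SMA and untreated control, 924 between untreated SMA and treated control and 0 between treated and untreated SMA, where it changed no call; pairing these 2 groups within the genotype, an alternative chosen after seeing the data, also called 0. What libraries of 1 number share between the genotypes is not known here, and a shared batch was not tested. Of 33 list medians, 17 took the other sign under at least 1 alternative. At the estimated depth of 19.5 to 28.7 M reads, genes of 1 to 2 FPKM had an interval of 25.8% to 33.5% of the value.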
